A study of Mus musculus with 8 samples.

Results

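Blood vessels of the uterine lining were described through 10 genes, namely the ligands Vegfa and Angpt2, the receptors Kdr, Flt1, Tek and Eng, and the endothelial products Pecam1, Cdh5, Emcn and Vwf. The genes were chosen by symbol, and each symbol matched 1 of the 52325 genes in the deposited table, so all 10 members were found. All 10 were among the 18174 genes with enough counts to be tested. RNA had been sequenced from 4 libraries of Thra1PV/+ mice and 4 of WT mice. In Thra1PV/+ mice 1 of the alleles of Thra, which encodes thyroid hormone receptor alpha, holds the PV mutation. Such mice express the mutant receptor from the gene's own promoter in every tissue that uses it, so an effect in the vessels cannot be told apart from an effect of the whole animal. By the study's methods, mice of both genotypes were taken in metestrus and endometrium was laser-captured from frozen sections, whereas the labels name the tissue only as uterus. Sequence counts per gene cannot separate the mutant transcript from the normal one, so they offer no check of the genotype labels. The age of these mice is not given in the sources used here. Nothing in the labels says which mouse gave which library, so the p-values measure the spread between these libraries.

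The inner wall of every blood vessel is a sheet of endothelial cells. VEGF-A, made largely by the cells around a vessel, acts on the receptors KDR (VEGFR2) and FLT1 (VEGFR1) to make the vessel grow, while angiopoietins act on the receptor TEK (TIE2) to settle or loosen its wall. The endometrium is a tissue in which vessels grow and regress with each cycle in the adult, and its capillaries lie in the stroma beneath the epithelium.

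None of the 10 vessel genes was called changed between Thra1PV/+ and WT endometrium. The largest differences were those of Tek, 3.59-fold lower in Thra1PV/+ libraries on a value that 1 WT library set, and of Angpt2, 2.12-fold lower, which missed the threshold in edgeR and passed it in DESeq2. For 8 of the 10 members the Thra1PV/+ mean lay below the WT mean, and the values of the genotypes overlapped for all 10. Among all tested genes 6.04% showed no overlap. Pecam1, Cdh5, Kdr, Tek, Eng and Emcn were highest in the same 3 libraries, from both genotypes, as were 13.7% of all tested genes. Vegfa was lowest in them, as were 9.67% of all tested genes, and Flt1, Vwf and Angpt2 did not follow this order.

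Levels are given as CPM, the reads assigned to a gene scaled to a common library total, after TMM normalization, which corrects for differences in library make-up. Fold changes, their standard errors (SE) and p-values come from edgeR's quasi-likelihood test over all 18174 tested genes with Benjamini-Hochberg adjustment, and a log2 fold change is Thra1PV/+ minus WT. A call needed at least a 2-fold difference together with an adjusted p-value no higher than 0.1, the limits the study used. By that rule 0.990% of the tested genes were called (0.924% higher and 0.0660% lower in Thra1PV/+ libraries), and 0 of 10 members were. At an unadjusted p-value under 0.05, 1 of 10 members passed where 9.77% of all tested genes did. DESeq2 called 2.64% of the genes it tested and 1 member, Angpt2. Between genotypes 6.04% of the tested genes showed no overlap of their CPM values (3.55% higher and 2.49% lower), and 0 of 10 members did. The libraries held between 48791602 and 59818887 counts, and the smallest count behind any member was 62, for Angpt2, so counting error was small beside the spread between libraries. The median log2 fold change was -0.35 over the 10 members and -0.05 over all tested genes, of which 56.8% were negative.

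Windows of 250 bases set before the RefSeq transcription start show what the promoters of 3 receptors, 1 surface glycoprotein and the main ligand look like. They were taken from RefSeq (GRCm38.p6), whose table held an entry for 6 of the 10 members. By the gene positions given below, the windows of Kdr and Emcn run a few bases into the gene. Capitals mark GGAAG or its reverse complement CTTCC, a form of the site that ETS factors, a family active in endothelium, recognise. The shorter core GGAA, without the last base, was not marked or counted. Kdr was read from the minus strand of chr5:75978456-75978705, Flt1 from the minus strand of chr5:147726012-147726261, Tek from the plus strand of chr4:94739039-94739288, Emcn from the plus strand of chr3:137340828-137341077 and Vegfa from the minus strand of chr17:46032378-46032627.
Kdr: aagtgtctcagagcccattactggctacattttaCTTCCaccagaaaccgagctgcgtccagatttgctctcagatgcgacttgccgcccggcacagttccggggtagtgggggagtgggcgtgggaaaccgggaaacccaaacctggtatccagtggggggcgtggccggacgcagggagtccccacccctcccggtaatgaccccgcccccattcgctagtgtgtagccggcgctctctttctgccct
Flt1: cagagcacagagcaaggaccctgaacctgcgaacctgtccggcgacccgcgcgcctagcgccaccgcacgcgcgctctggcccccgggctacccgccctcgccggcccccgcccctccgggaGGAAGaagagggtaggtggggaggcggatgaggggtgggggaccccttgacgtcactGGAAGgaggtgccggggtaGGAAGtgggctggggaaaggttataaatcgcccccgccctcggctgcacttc
Tek: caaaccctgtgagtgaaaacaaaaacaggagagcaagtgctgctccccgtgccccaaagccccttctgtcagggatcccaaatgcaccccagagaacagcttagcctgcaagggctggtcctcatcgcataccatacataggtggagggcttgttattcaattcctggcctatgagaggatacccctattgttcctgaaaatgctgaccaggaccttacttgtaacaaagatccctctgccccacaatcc
Emcn: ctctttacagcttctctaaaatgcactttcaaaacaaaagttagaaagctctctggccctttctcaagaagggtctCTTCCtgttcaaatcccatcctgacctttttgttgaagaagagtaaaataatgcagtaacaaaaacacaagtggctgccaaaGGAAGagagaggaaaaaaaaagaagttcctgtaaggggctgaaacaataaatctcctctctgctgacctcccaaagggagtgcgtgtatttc
Vegfa: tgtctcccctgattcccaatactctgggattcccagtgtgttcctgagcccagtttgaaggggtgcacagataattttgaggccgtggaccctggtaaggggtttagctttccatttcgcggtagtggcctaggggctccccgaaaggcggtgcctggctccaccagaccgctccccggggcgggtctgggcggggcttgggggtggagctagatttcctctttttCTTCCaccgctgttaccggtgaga

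GGAAG, on either strand, occurred 3 times before Flt1, 2 times before Emcn, 1 time before Kdr, 1 time before Vegfa and 0 times before Tek. Eng, the sixth member with an entry, had it 2 times, and its window is not printed. These 5 letters are common, since 64.1% of 32851 promoter windows of this length held them on either strand. Of the 7 windows that belong to members, Vegfa having a second start, 6 held GGAAG. The core ACGTG, which hypoxia-inducible factors recognise, was found in 1 of the 7, at the second start of Vegfa, and in 16.6% of all windows. Such matches describe the letters of these windows and say nothing of binding.

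Vegfa (ENSMUSG00000023951.17, chromosome 17 of GRCm38, 46016993 to 46032369, minus strand) encodes the ligand that drives vessel growth, and it is made by epithelium as well as stroma. Its level was 49.5, 216.6, 190.6 and 117.6 CPM in Thra1PV/+ libraries 1 to 4 and 107.9, 92.4, 249.0 and 187.7 CPM in WT libraries 1 to 4. Thra1PV/+ library 1 was the lowest of all and WT library 3 the highest, and the genotypes overlapped over most of their range. Mean levels were 144 ± 75.5 CPM (SD, n = 4) in Thra1PV/+ and 159 ± 73.0 CPM (SD, n = 4) in WT endometrium. The log2 fold change was -0.15 (SE 0.48, 95% interval -1.25 to 0.95, adjusted p = 0.956 by edgeR's quasi-likelihood test), which leaves room for a Vegfa level up to 2.38-fold lower or 1.94-fold higher. Its sign turned when Thra1PV/+ library 1 or WT library 3 was left out, to 0.18 and 0.17.

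Angpt2 (ENSMUSG00000031465.6, chromosome 8, 18690263 to 18741562, minus strand) encodes angiopoietin-2, which endothelial cells release and which loosens the vessel wall by opposing angiopoietin-1 at TEK. It was measured at 1.96, 1.26, 2.08 and 2.73 CPM in Thra1PV/+ libraries 1 to 4 and at 4.22, 4.95, 2.69 and 5.17 CPM in WT libraries 1 to 4. On CPM the genotypes overlapped by a single pair, Thra1PV/+ library 4 just above WT library 3. Otherwise each WT library was above each Thra1PV/+ library. The deposited TPM values, described below, did not overlap, at 0.421 to 0.831 TPM in Thra1PV/+ and 1.05 to 1.86 TPM in WT libraries. The share of all tested genes without overlap on TPM was not computed. The means were 2.01 ± 0.604 CPM and 4.25 ± 1.12 CPM (SD, n = 4 each). The difference, -1.08 in log2 fold change (SE 0.34, 95% interval -1.86 to -0.30) had an unadjusted p = 0.0124 and an adjusted p = 0.341 by edgeR's quasi-likelihood test, so it was not called. DESeq2 gave -1.05 with an adjusted p = 0.0481, which passed both thresholds. With each library left out in turn the value stayed between -1.27 and -0.91. Angpt2 lies within Mcph1 on the opposite strand, and the counts were made with salmon from a stranded library, and whether salmon was run with strand is not given in the sources used here.

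Kdr (ENSMUSG00000062960.10, chromosome 5, 75932827 to 75978458, minus strand) encodes the receptor that carries most of the VEGF-A signal. Its level was 31.7, 6.21, 11.5 and 10.9 CPM in Thra1PV/+ libraries 1 to 4 and 21.6, 23.3, 7.34 and 12.2 CPM in WT libraries 1 to 4. Both the highest and the lowest value came from Thra1PV/+ mice, and the WT values lay between them. Its log2 fold change was -0.09 (SE 0.55, 95% interval -1.35 to 1.16, adjusted p = 0.978 by edgeR's quasi-likelihood test), and its sign was not stable when single libraries were left out (-0.71 to 0.17).

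Flt1 (ENSMUSG00000029648.13, chromosome 5, 147561604 to 147726011, minus strand) encodes the VEGF receptor that binds tightly and signals little, and that also exists as a soluble trap. It was measured at 21.9, 24.9, 42.7 and 22.4 CPM in Thra1PV/+ libraries 1 to 4 and at 24.0, 27.8, 45.9 and 56.1 CPM in WT libraries 1 to 4. Its order of libraries was unlike that of Kdr, with WT libraries 3 and 4 and Thra1PV/+ library 3 at the top. Flt1 had a log2 fold change of -0.46 (SE 0.33, 95% interval -1.22 to 0.30, adjusted p = 0.716 by edgeR's quasi-likelihood test).

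Tek (ENSMUSG00000006386.15, chromosome 4, 94739289 to 94874976, plus strand) encodes the angiopoietin receptor. Thra1PV/+ libraries 1 to 4 held 15.5, 2.68, 5.74 and 6.81 CPM, and WT libraries 1 to 4 held 76.9, 17.3, 6.13 and 10.1 CPM. WT library 1 stood far above every other library, while WT library 3 lay below 2 of the Thra1PV/+ libraries. Its log2 fold change of -1.84 (SE 0.86, 95% interval -3.81 to 0.12, adjusted p = 0.549 by edgeR's quasi-likelihood test) became -0.50 (unadjusted p = 0.425) without WT library 1. In that library the 8 genes of the smooth muscle list summed to 13143 CPM, against 146 to 1146 CPM in the other 7, and their part in the Tek value was not tested.

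Eng (ENSMUSG00000026814.16, chromosome 2, 32646595 to 32682669, plus strand) encodes endoglin, a co-receptor for the TGF-beta family on endothelium. Its level was 54.3, 15.3, 26.6 and 23.9 CPM in Thra1PV/+ libraries 1 to 4 and 54.3, 63.2, 23.1 and 31.2 CPM in WT libraries 1 to 4. Thra1PV/+ library 1 was level with WT library 1, and the other 3 Thra1PV/+ libraries fell among or below the 2 lower WT libraries. The log2 fold change was -0.52 (SE 0.44, 95% interval -1.53 to 0.50, adjusted p = 0.773 by edgeR's quasi-likelihood test). The end of Eng overlaps the end of Fpgs on the opposite strand, and 3 small RNA genes lie inside it.

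Pecam1 and Cdh5 hold neighbouring endothelial cells together. Pecam1 (ENSMUSG00000020717.19, chromosome 11, 106654217 to 106750628, minus strand), which encodes CD31, had 56.1, 18.1, 37.2 and 34.0 CPM in Thra1PV/+ libraries 1 to 4 and 66.0, 57.9, 30.1 and 36.4 CPM in WT libraries 1 to 4. Its log2 fold change was -0.39 (SE 0.37, 95% interval -1.23 to 0.46, adjusted p = 0.798 by edgeR's quasi-likelihood test). WT libraries 1 and 2 and Thra1PV/+ library 1 were the 3 highest, and the remaining 5 mixed the genotypes. Cdh5 (ENSMUSG00000031871.9, chromosome 8, 104101625 to 104144511, plus strand), which encodes VE-cadherin of the adherens junction, had 72.2, 12.0, 22.4 and 15.03 CPM in Thra1PV/+ libraries 1 to 4 and 31.3, 50.0, 12.9 and 19.0 CPM in WT libraries 1 to 4. Its log2 fold change was 0.10 (SE 0.64, 95% interval -1.35 to 1.56, adjusted p = 0.979 by edgeR's quasi-likelihood test). The highest value of Cdh5 was that of Thra1PV/+ library 1, without which the log2 fold change was -0.73. An antisense gene, Gm29682, overlaps the start of Cdh5.

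Emcn and Vwf differ in the vessels they mark, endomucin being most abundant on capillaries and veins. Emcn (ENSMUSG00000054690.17, chromosome 3, 137341067 to 137432185, plus strand) had 27.2, 5.78, 15.7 and 14.7 CPM in Thra1PV/+ libraries 1 to 4 and 28.6, 30.6, 6.90 and 12.6 CPM in WT libraries 1 to 4, a log2 fold change of -0.31 (SE 0.57, 95% interval -1.61 to 0.98, adjusted p = 0.909 by edgeR's quasi-likelihood test). The same 3 libraries led as for Pecam1. Vwf (ENSMUSG00000001930.17, chromosome 6, 125546774 to 125686679, plus strand), which encodes the clotting factor that endothelium stores and secretes, had 17.4, 7.22, 17.0 and 17.9 CPM in Thra1PV/+ libraries 1 to 4 and 18.7, 11.9, 8.85 and 8.16 CPM in WT libraries 1 to 4. On CPM, Thra1PV/+ libraries 1, 3 and 4 lay close together near the top of the WT range, and library 2 lay below all WT libraries. The deposited TPM values, described below, gave another order, with 4.88, 6.25, 12.4 and 16.6 TPM in Thra1PV/+ libraries 1 to 4. On that scale library 1 was the lowest of the Thra1PV/+ libraries, and all of them lay within the WT range of 4.65 to 16.6 TPM. The log2 fold change of Vwf was 0.32 (SE 0.37, 95% interval -0.52 to 1.16, adjusted p = 0.840 by edgeR's quasi-likelihood test), the largest positive value among the members. With limma on log2(TPM + 1) it was 0.11.

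**Figure D1:**
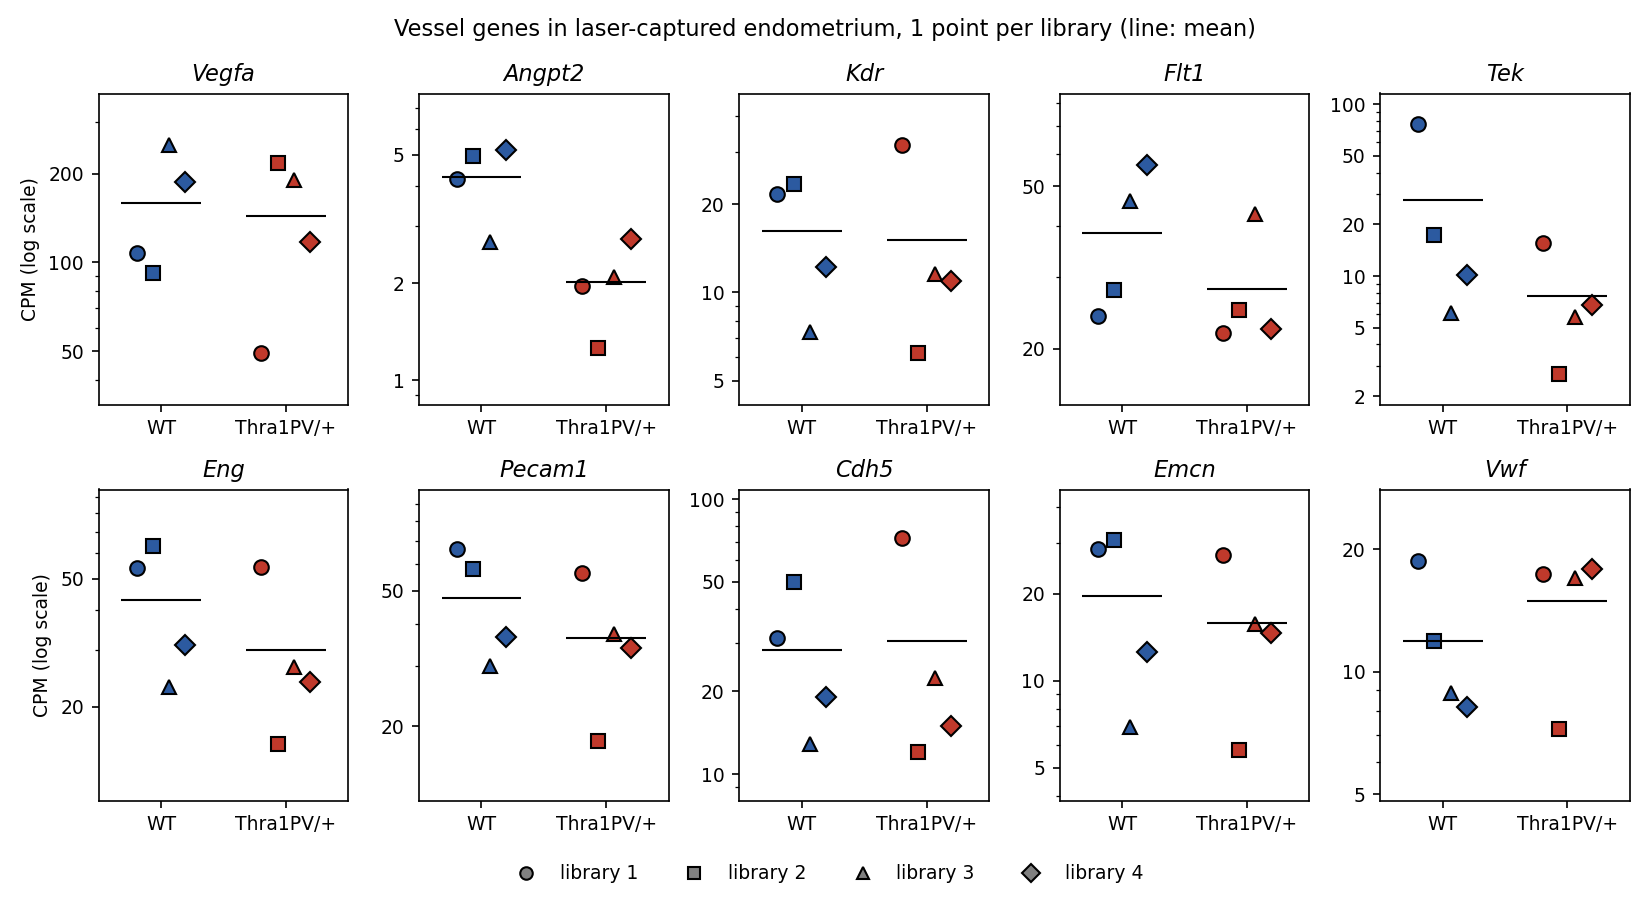
CPM of each vessel gene (log axis) in the 4 WT (blue) and 4 Thra1PV/+ (red) libraries, with the marker shape giving the library number and a line at the mean of each genotype. The genotypes overlap in all 10 panels, by 1 pair of libraries for Angpt2, and WT library 1 stands apart for Tek at 76.9 CPM.

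Compared between genes, levels need to be set per length of transcript, which the deposited TPM values (transcripts scaled to a common total) are. On that scale the median over the 8 libraries was 91.2 TPM for Vegfa, 14.5 for Emcn, 13.6 for Pecam1, 10.7 for Eng, 7.80 for Vwf, 5.97 for Cdh5, 5.17 for Flt1, 2.56 for Kdr, 2.35 for Tek and 0.942 for Angpt2. Neighbours in this order from Emcn down to Tek overlapped in their ranges, as did Tek and Angpt2, with Tek at 0.716 to 19.9 TPM and Angpt2 at 0.421 to 1.86 TPM. Vegfa, at 32.9 to 143 TPM, was above the whole range of Emcn (5.68 to 30.7 TPM).

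Ratios of 2 genes within a library do not depend on how libraries are scaled, so 4 were compared between genotypes with an exact permutation test (two-sided, all 70 arrangements of the 8 libraries, smallest possible p = 0.0286). The log2 ratio of Vegfa to Kdr, ligand to receptor, ranged from 0.64 in Thra1PV/+ library 1 to 5.12 in Thra1PV/+ library 2 and from 1.98 to 5.08 in WT libraries, with a difference of means of -0.02 (exact permutation p = 1). The log2 ratio of Flt1 to Kdr differed by -0.22 (exact permutation p = 0.83), and it was lowest in Thra1PV/+ library 1 and WT libraries 1 and 2. For Angpt2 against its receptor Tek the difference was 0.33 (exact permutation p = 0.686), and for Angpt2 against Angpt1, the ligand it opposes, it was 0.22 (exact permutation p = 0.800). All 4 ratios overlapped between genotypes, and each had an adjusted p of 1 over the 4 tests. For Angpt2 over Angpt1 the log2 ratio ran from -0.55 to 2.80 in Thra1PV/+ and from -0.19 to 2.35 in WT libraries.

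Endothelial genes outside the 10 members were read from a list of 24, of which 23 had enough counts (Sele, at 0 to 5 counts a library, did not). None of the 23 was called, and none had an unadjusted p-value under 0.05. DESeq2 also called 0 of the 24. All 23 had a negative log2 fold change, between -0.98 and -0.10 with a median of -0.43. Most of these genes were high and low in the same libraries, so the 23 signs are not 23 separate observations. The number of negative values was 20 of 23 without WT library 1 or without WT library 2, and 23 of 23 with a median of -0.81 without Thra1PV/+ library 1. Cd34, a sialomucin of capillaries that stromal cells also carry, was measured at 215, 17.2, 47.6 and 42.7 CPM in Thra1PV/+ libraries 1 to 4 and at 142, 358, 67.6 and 68.6 CPM in WT libraries 1 to 4 (log2 fold change -0.98, SE 0.84, adjusted p = 0.771 by edgeR's quasi-likelihood test). Its value was -2.10 without Thra1PV/+ library 1 and -0.18 without WT library 2. Sox17, a transcription factor of arteries that uterine epithelium also expresses, had a log2 fold change of -0.67 (SE 0.46, adjusted p = 0.699 by edgeR's quasi-likelihood test), which was 0.02 without WT library 2.

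A list of 20 other genes that shape vessels, the pathway list, held genes of the VEGF, angiopoietin and Notch pathways and further factors. Of these, edgeR called 0 and DESeq2 called 2, Dll4 and Vegfd. At an unadjusted p-value under 0.05, 3 were lower in Thra1PV/+ libraries and 0 were higher, where 4.72% of all tested genes were lower and 5.05% higher. Dll4, the Notch ligand of sprouting tip cells and arteries, was measured at 7.34, 6.39, 6.64 and 6.29 CPM in Thra1PV/+ libraries 1 to 4 and at 12.9, 10.8, 28.6 and 14.6 CPM in WT libraries 1 to 4. The 4 Thra1PV/+ values were nearly equal, and all lay below the lowest WT value. The log2 fold change was -1.33 (SE 0.32, 95% interval -2.05 to -0.61, unadjusted p = 0.00269, adjusted p = 0.171 by edgeR's quasi-likelihood test), and -0.92 (unadjusted p = 0.00168) without WT library 3. DESeq2 gave Dll4 an adjusted p = 0.00918. When the 3 libraries richest in stromal genes (Thra1PV/+ library 1 and WT libraries 1 and 2) were left out, the value was -1.70.

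Vegfd, a ligand of lymphatic growth made by stromal cells, had 2.44, 1.03, 0.756 and 2.31 CPM in Thra1PV/+ libraries 1 to 4 and 17.2, 4.15, 4.18 and 2.68 CPM in WT libraries 1 to 4. The genotypes did not overlap, by a narrow margin. Its log2 fold change of -2.10 (SE 0.69, adjusted p = 0.355 by edgeR's quasi-likelihood test) was -1.12 without WT library 1. Nrp2, a co-receptor for VEGF on veins and lymphatics, overlapped between genotypes, at 14.5 to 31.6 CPM in Thra1PV/+ and 19.6 to 65.6 CPM in WT libraries (log2 fold change -0.98, SE 0.39, adjusted p = 0.472 by edgeR's quasi-likelihood test). The log2 fold changes of the other 17 ran from -1.17 to 0.51, among them Angpt1 at -1.14 and Vegfb at 0.15, and the median over the 20 was -0.45.

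**Figure D2:**
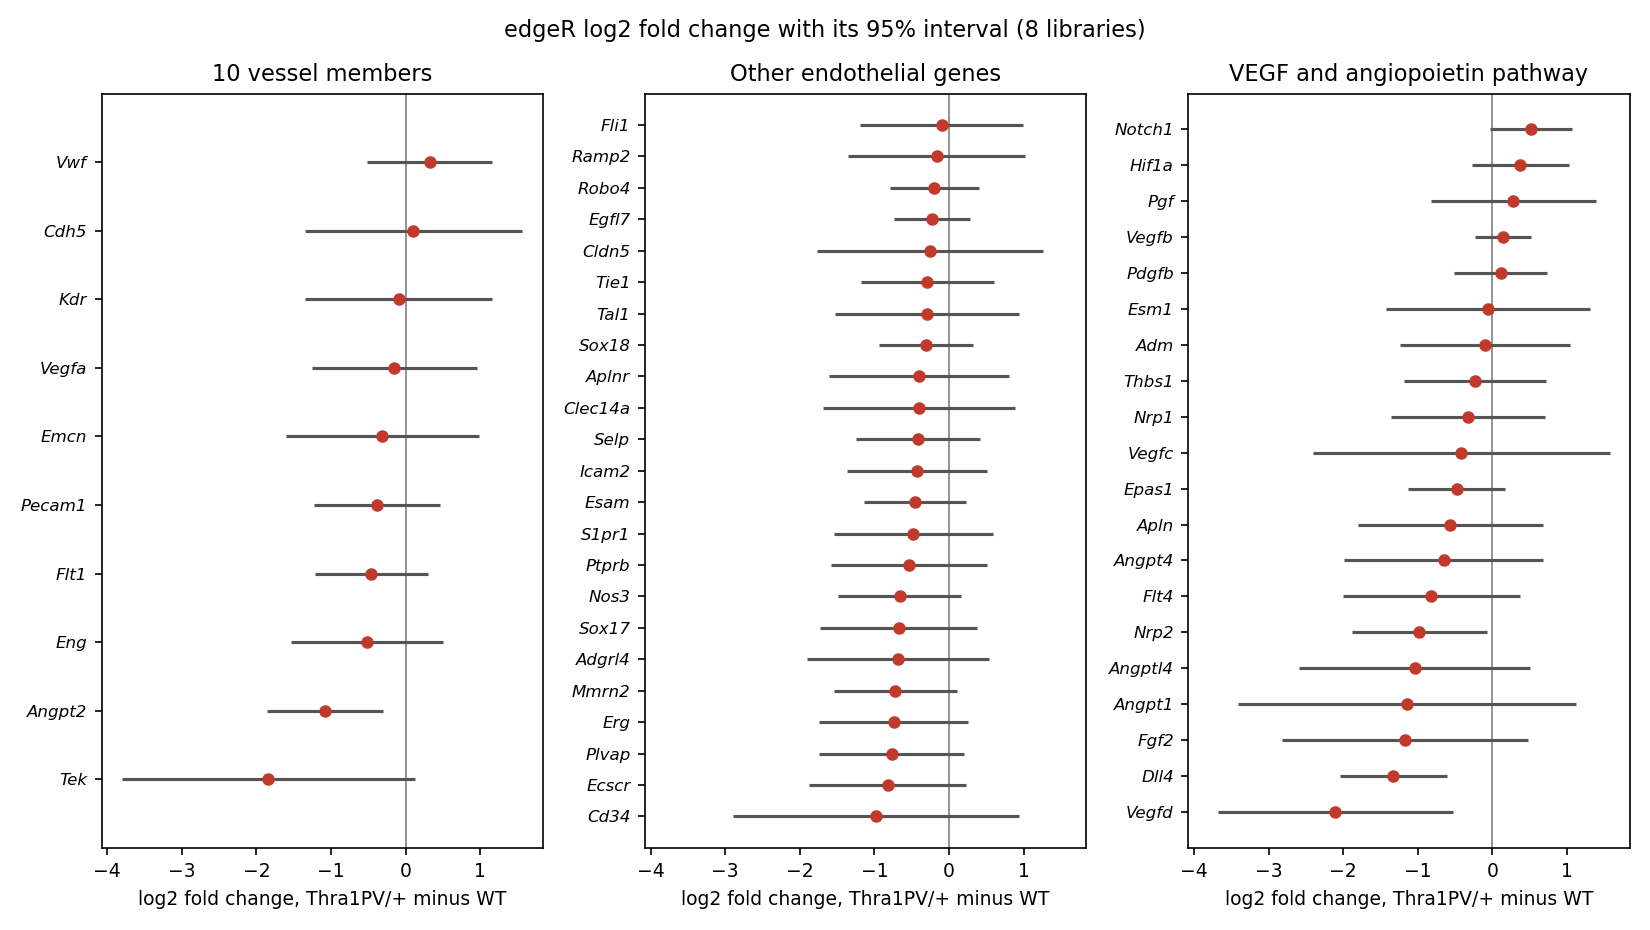
Log2 fold change (Thra1PV/+ minus WT, points) with its 95% interval (bars) from edgeR's quasi-likelihood test, each panel sorted. The panels hold the 10 members, 23 other endothelial genes and the 20 genes of the pathway list. Among the members the interval of Angpt2 alone lies below 0, and on the pathway list those of Dll4, Vegfd and Nrp2 do.

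Pericytes, the mural cells that wrap capillaries, were read from 8 genes. Notch3, the Notch receptor of mural cells, was called and rose from 18.1 ± 2.71 to 45.2 ± 8.18 CPM (SD, n = 4 each), a log2 fold change of 1.32 (SE 0.17, adjusted p = 0.0181 by edgeR's quasi-likelihood test). Its values were 38.0, 55.6, 47.8 and 39.3 CPM in Thra1PV/+ libraries 1 to 4 and 18.1, 17.0, 21.8 and 15.4 CPM in WT libraries 1 to 4, with no overlap. Notch3 is also expressed in stratified squamous epithelium, and the 7 genes of the squamous epithelium list summed to 2388 to 3858 CPM in Thra1PV/+ and 1.66 to 36.1 CPM in WT libraries. All 7 genes of that list were called higher, Krt5, Trp63, Col17a1 and Dsc3 among them. The list moved with Notch3, and its part in the Notch3 value was not tested. The other 7 pericyte genes had negative log2 fold changes, and none of them was called or had an unadjusted p-value under 0.05. Over the 8 genes the summed level was 199 to 501 CPM in Thra1PV/+ and 251 to 768 CPM in WT libraries.

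Of the 10 vessel genes, 6 had the same 3 libraries at the top, as did 13.7% of all tested genes. Within Thra1PV/+ mice 6 of 10 members were highest in library 1 and 8 of 10 were lowest in library 2. Within WT mice 7 of 10 were highest in library 1 or 2 and 7 of 10 were lowest in library 3. The share of all tested genes with these orders was not computed, so the counts are not read as a trait of vessel genes. The ratio of the highest to the lowest library within Thra1PV/+ mice was larger than the fold change between genotypes for 10 of 10 members, and within WT mice for 9 of 10, the exception being Angpt2. A range over several libraries tends to exceed a fold change between means, and the share of all tested genes that pass was not computed. These counts therefore do not weigh libraries against genotypes. Summed over the 8 members other than the ligands, the level was 296, 92.3, 179 and 146 CPM in Thra1PV/+ libraries 1 to 4 and 321, 282, 141 and 186 CPM in WT libraries 1 to 4.

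The level of stromal genes moved with that sum. The 8 genes of the stroma list, which include the collagen genes Col1a1 and Col1a2 and the receptor gene Pdgfra, summed to 4161, 406, 972 and 1275 CPM in Thra1PV/+ libraries 1 to 4 and to 4431, 4443, 1440 and 1716 CPM in WT libraries 1 to 4. The 7 genes of the simple epithelium list, such as Epcam and Krt8, summed to 1930 to 4890 CPM and 2050 to 5534 CPM. The ratio of stroma to epithelium sums was 2.16 in Thra1PV/+ library 1, 2.16 in WT library 1 and 1.55 in WT library 2, and it lay between 0.0987 and 0.359 in the other 5. All genes of both lists had counts in each of the 8 libraries, so both compartments of endometrium were present in all, with these 3 called stroma-rich from here on. Between genotypes edgeR called 0 genes of either list, and the 1 gene with an unadjusted p-value under 0.05 was the proteoglycan gene Dcn (log2 fold change -2.24), which DESeq2 called. The 8 stroma genes all had negative log2 fold changes, with a median of -0.83, where the members had -0.35 and the other endothelial genes -0.43.

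Pecam1, Cdh5, Kdr, Tek, Eng and Emcn, 60.0% of the members, had their 3 highest values in those 3 stroma-rich libraries, as did 13.7% of all tested genes. Of the 23 other endothelial genes 18 did (78.3%), Tie1, Esam, Erg and Cd34 among them. Icam2 went the other way and was lowest in the 3. Flt1, Vwf and Angpt2 did not follow this order. In bulk RNA, fewer endothelial cells and less RNA per endothelial cell cannot be told apart, and the part of the stromal level in the genotype values was not tested. Per 1000 CPM of the stroma list, the 8 endothelial members came to 71.2, 227, 184 and 114 CPM in Thra1PV/+ libraries 1 to 4 and 72.5, 63.5, 98.0 and 108 CPM in WT libraries 1 to 4. On this scale the direction turned, since Thra1PV/+ libraries 2, 3 and 4 lay above every WT library and Thra1PV/+ library 1 lay among them. In libraries 2, 3 and 4 the denominator was itself low, at 406 to 1275 CPM of stroma against 1440 to 4443 CPM in WT libraries. The direction thus depends on this choice of denominator. The difference on this scale was not tested.

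Vegfa went the opposite way and was lowest in the 3 stroma-rich libraries, as 9.67% of tested genes were. It shared this order with all 10 genes of the hypoxia list, which hypoxia-inducible factors are known to switch on, among them the glucose transporter gene Slc2a1 and the glycolytic genes Pgk1 and Ldha. Their sum was 995, 3958, 3980 and 2107 CPM in Thra1PV/+ libraries 1 to 4 and 1303, 826, 3183 and 3316 CPM in WT libraries 1 to 4. The simple epithelium list had the same order, with 6 of its 7 genes lowest in the 3 libraries. The levels of epithelial and hypoxia genes moved together here, and their parts in the Vegfa level were not tested. Between genotypes, 0 of the 10 hypoxia genes were called by edgeR or DESeq2, and 9 of 10 had positive log2 fold changes with a median of 0.55. Car9, which encodes a carbonic anhydrase, was the 1 gene with an unadjusted p-value under 0.05 (log2 fold change 2.20, SE 0.88, adjusted p = 0.463 by edgeR's quasi-likelihood test).

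**Figure D3:**
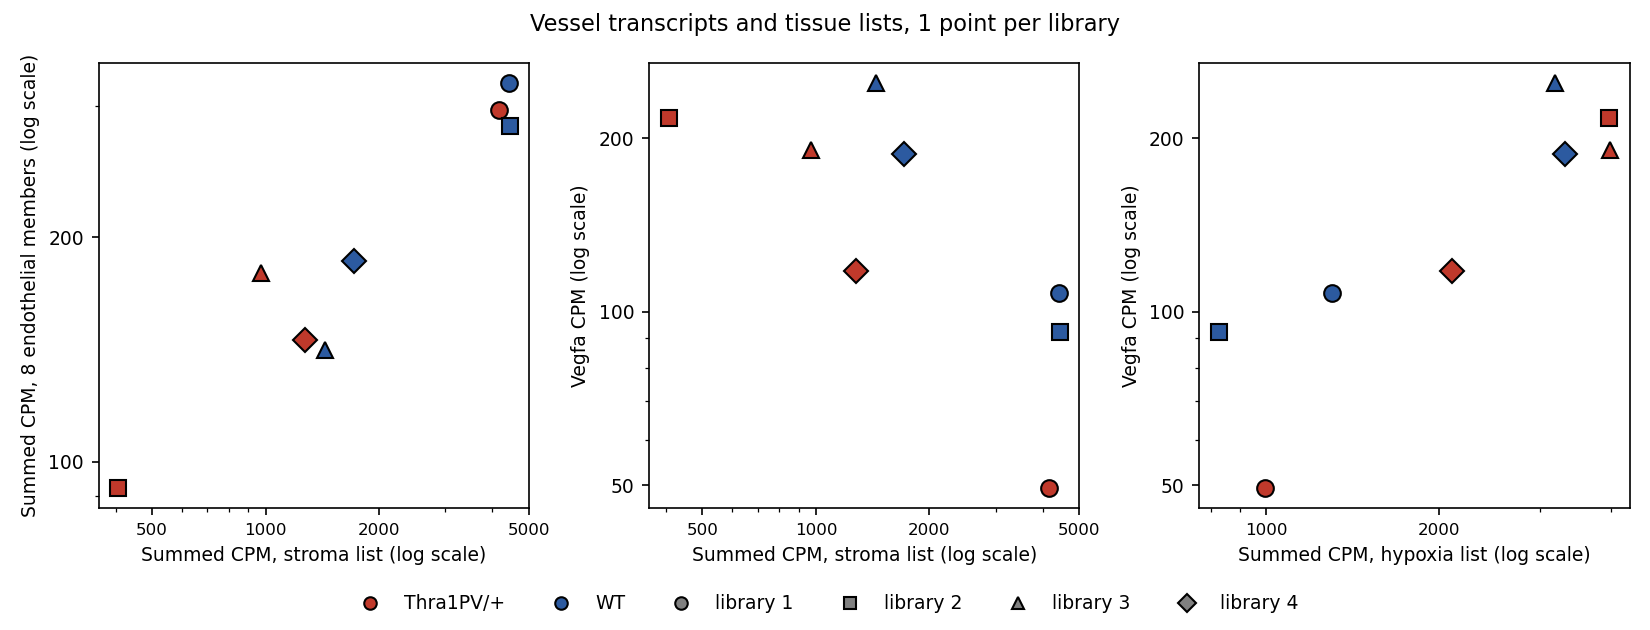
Summed CPM of the 8 endothelial members against the stroma list (left), Vegfa against the stroma list (middle) and Vegfa against the hypoxia list (right), on log axes, with 1 point per library, colour for genotype and shape for library number. Thra1PV/+ library 1 and WT libraries 1 and 2 sit together at 4161 to 4443 CPM of stroma, where the endothelial sum is highest and Vegfa lowest.

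The genes whose log2 CPM followed the members most closely over the 8 libraries were found by Pearson's r, given as a description of points that share libraries and tissue make-up. For the mean of the 8 endothelial members they were C1s1 (r = 0.994), Zc3h12b (0.993), Mapre2 (0.989), Colec12 (0.988) and Bgn (0.987). C1s1 encodes a complement protease and Bgn the matrix proteoglycan biglycan. For Vegfa they were Srp9 (r = 0.987), Dda1 (0.982) and Stat3 (0.981). For Angpt2 they were Hdac2 (r = 0.967), Tusc2 (0.956) and Mrps24 (0.949).

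Other cells of the vessel and its contents were checked by their markers. All 8 smooth muscle genes had an unadjusted p-value under 0.05 for lower levels in Thra1PV/+ libraries, and none was called. Acta2, Actg2, Cnn1 and Myh11 ranged from -5.30 to -4.01 in log2 fold change. DESeq2 called 0, and without WT library 1 just 1 of the 8 had a p-value under 0.05, with a median of -1.27. Lymphatic endothelium was at low levels, with Lyve1 at 0.243 to 1.10 CPM in Thra1PV/+ and 0.318 to 14.5 CPM in WT libraries, the highest in WT library 1. Of the 6 lymphatic genes edgeR called none, Lyve1, Mmrn1 and Ccl21a having an unadjusted p-value under 0.05, whereas DESeq2 called Lyve1 and Mmrn1. Pdpn, which other cells also express, had 35.8 to 54.8 CPM in Thra1PV/+ and 10.3 to 47.4 CPM in WT libraries (log2 fold change 0.82), so it made up most of the summed 41.3 to 57.0 CPM of the list in Thra1PV/+ libraries, where WT libraries summed to 11.8 to 140 CPM. Prox1, the transcription factor that sets lymphatic identity, was at 0.793 and 0.794 CPM on average, and the list median of -2.35 became 0.05 without WT library 1. Red blood cell genes summed to 14.6 to 29.3 CPM in Thra1PV/+ and 17.1 to 179 CPM in WT libraries, again highest in WT library 1, and none was called by edgeR or DESeq2, with Hbb-bs and Hba-a2 at an unadjusted p-value under 0.05. Among 4 platelet genes with enough counts, Ppbp, which encodes a platelet chemokine, was measured at 52.3, 170, 36.2 and 0.683 CPM in Thra1PV/+ libraries 1 to 4 and at 0.229 to 3.24 CPM in WT libraries (log2 fold change 5.82, SE 1.53, adjusted p = 0.224 by edgeR's quasi-likelihood test), a gene that passed in DESeq2. The other 3 did not follow Ppbp, with log2 fold changes of -0.32 for Pf4, -0.39 for Itga2b and 0.03 for Gp1bb. The 5 leukocyte genes summed to 220 to 405 CPM and 252 to 321 CPM, and none was called by edgeR or DESeq2, with Tyrobp (log2 fold change 0.80) at an unadjusted p-value under 0.05. The 8 endothelial members themselves had counts in every library.

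Single libraries set several of the member values. Cdh5, Kdr, Emcn and Vegfa changed sign when 1 library was left out, whereas Pecam1, Flt1, Tek, Vwf, Eng and Angpt2 did not. When the 3 stroma-rich libraries were left out, a choice made after their values had been seen, 3 Thra1PV/+ and 2 WT libraries remained. In that fit 0 of 10 members were called, 6 of 10 were negative with a median log2 fold change of -0.20, and Angpt2 was at -0.92 (unadjusted p = 0.0985 by edgeR's quasi-likelihood test).

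**Figure D4:**
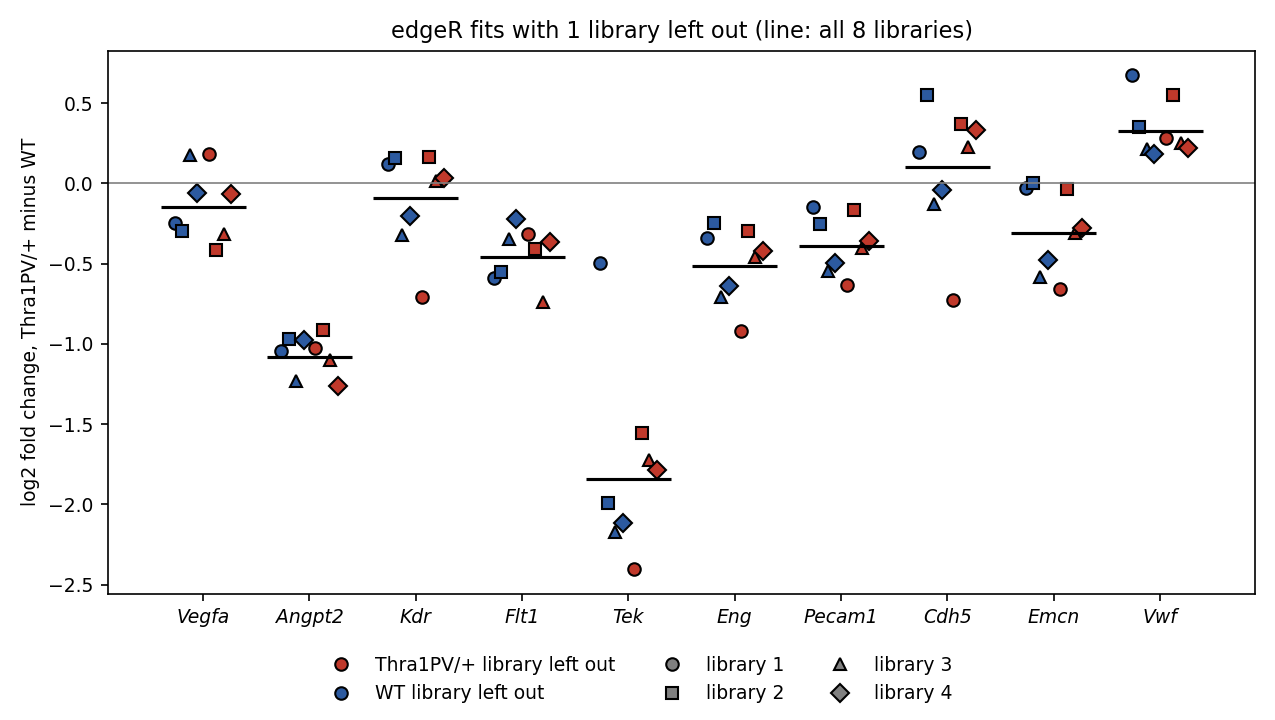
Log2 fold change of each member (Thra1PV/+ minus WT) in 8 edgeR fits that each leave out 1 library, coloured by the genotype of that library and shaped by its number, with a line at the value from all 8. Angpt2 stays between -1.27 and -0.91, and Tek moves from -1.84 to -0.50 without WT library 1.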

How the data were processed

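The authors prepared stranded mRNA libraries, trimmed reads with Trimmomatic and ran salmon for mouse genome mm10, and versions are not given in the sources used here. The authors deposited estimated counts per gene with no normalization. They also deposited TPM values, whose sorted values differed between libraries by at most 0.291 TPM at any rank, the form that quantile normalization gives. That table holds 1 further column, matched to no sample, which was not used. The authors tested with DESeq2.

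Counts were rounded to integers, filtered with filterByExpr (minimum count 10, minimum total 15), scaled by TMM and tested with edgeR 4.0.16 (limma 3.58.1, R 4.3.3), with genotype as the only term. Log2 CPM used a prior count of 2. Positions are from GENCODE M21. The members, the 12 other gene lists, the tests and the alternatives were chosen with earlier results of these data known. Named genes were all members, up to 4 genes of each list with the smallest p-values under 0.05 or otherwise the 2 most abundant, and those most correlated with the members. Other genes named as examples of a list (Epcam, Slc2a1, Pgk1, Ldha, Col1a1, Col1a2, Pdgfra, Tie1, Esam, Erg, Icam2, Angpt1, Vegfb, Pdpn, Prox1, Pf4, Itga2b, Gp1bb) were picked after their values were seen.

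Alternatives were DESeq2 1.42.0, its size factors in edgeR, library size only, a filter of 1 count in any library, replicate number as a block, limma on log2(TPM + 1) and log2(TPM + 0.1), each library left out, and, chosen after seeing the data, the 3 stroma-rich libraries left out. The fits were first tested on simulated counts with known changes, and the permutation test against a second implementation.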

Additional observations from a re-analysis of the deposited data

Results flagged for a closer look

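Within a genotype, 4 values stood apart from the other 3 libraries by Dixon's test at its 95% critical value, among 132 sets of 4 libraries examined, where chance alone gives about 6.6. Vwf in Thra1PV/+ library 2 was at 2.86 on the log2 CPM scale, with the other 3 between 4.09 and 4.17. On the TPM scale that library did not stand apart, at 6.25 TPM with the other 3 between 4.88 and 16.6 TPM. Ccl21a, a chemokine gene of lymphatic vessels, was at 6.09 in WT library 1 and between -0.04 and 0.55 in the other 3. Myh11, the smooth muscle myosin gene, was at 10.77 in the same library and between 6.07 and 6.66 in the others. Col17a1, a collagen gene of the squamous epithelium list, was at 7.79 in Thra1PV/+ library 3 and between 7.33 and 7.39 in the others. No cause of these values was tested.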

How the results depend on the processing

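Of the 16 alternatives, DESeq2 alone called a member (1, Angpt2), and the other 15 called 0. Over all genes edgeR called 180, DESeq2 791, the replicate block 82, and fits without 1 library 81 to 167. Same-numbered libraries did not pair (correlations of their deviations 0.27, -0.44, 0.34 and -0.16, with 2 of 8 libraries closest to their own number), and under the block Angpt2 was at -1.09 (unadjusted p = 0.0326 by edgeR's quasi-likelihood test). Of 160 member values under alternatives, 144 kept their sign and 16 did not. Cdh5 was at -0.055 with the replicate block, -0.10 with log2(TPM + 1), -0.13 with log2(TPM + 0.1) and -0.73 to 0.55 with 1 library left out. With 1 library left out Kdr ran from -0.71 to 0.17, Emcn from -0.66 to 0.0043 and Vegfa from -0.42 to 0.18. Without the 3 stroma-rich libraries Kdr was at 0.0040 and Emcn at 0.34. On log2(TPM + 1) the difference in log2 ratio was 0.052 for Vegfa to Kdr and -0.22 for Angpt2 to Angpt1. With 1 library left out the ratios ran from -0.38 to 0.76 for Angpt2 to Tek, -0.63 to 0.86 for Vegfa to Kdr, -0.60 to 0.33 for Flt1 to Kdr and -0.29 to 0.91 for Angpt2 to Angpt1. The cause of these shifts was not tested beyond the libraries or scales named. Angpt2 had an unadjusted p-value under 0.05 in 15 of 16 alternatives, and its adjusted p ran from 0.0481 to 0.702 over edgeR, limma and DESeq2. Notch3 was called in 15 of 16, the exception being log2(TPM + 1). With 4 libraries a genotype, the lower ends of the members' 95% intervals ran from a 1.43-fold lower level (Vwf) to a 14.0-fold lower level (Tek). Their upper ends reached up to a 2.95-fold higher level (Cdh5), and the interval of Angpt2 alone lay wholly on the lower side.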
